A study of Mus musculus with 6 samples.

Results

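This account concerns 10 genes of polyamine metabolism in haematopoietic stem cells of mice. They are Odc1, Amd1, Srm and Sms, which build polyamines, Sat1, Smox and Paox, which break them down, and Oaz1, Oaz2 and Azin1, which control the first step. They were chosen by symbol, 10 of the 52183 genes in the deposited table, and all 10 were found in it. The list was drawn up with results of the same comparison known. Differences between the groups are therefore given here as a description, and their adjusted p-values are those of a fit over all genes and are no independent support. RNA was sequenced from haematopoietic stem cells sorted by flow cytometry from bone marrow. The mice were female and 4 months old. The labels put 3 libraries in the control group and 3 in the Thbs1 knockout group, a genotype meant to lack the secreted matrix protein thrombospondin 1. The question posed by the labels is how the deletion alters transcripts of these stem cells. No source used here gives the strain, the deleted part of the gene, the cells in which it was deleted or any pooling of animals. The p-values therefore measure the spread between libraries, which may be technical.

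Polyamines are small, positively charged molecules that bind RNA and support protein synthesis and cell growth. Ornithine decarboxylase makes putrescine, and spermidine synthase and spermine synthase each add an aminopropyl group, taken from decarboxylated S-adenosylmethionine, to give spermidine and then spermine. Spermidine also supplies the hypusine residue of the translation factor eIF5A, which blood stem cells use for protein synthesis. Antizymes bind ornithine decarboxylase and send it to the proteasome, and their own translation needs a polyamine-driven shift of reading frame.

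The unit, FPKM, counts fragments relative to exon length and to all mapped fragments, so that levels can be compared between genes per length. Steps between low values of short genes corresponded to 22730000 to 30890000 reads per library. Across genes, pairs of libraries within a group correlated at 0.983 to 0.987 on the log2(FPKM + 1) scale, and pairs from different groups at 0.977 to 0.983. Thbs1 itself (chromosome 2, 118111876 to 118127133, GRCm38) had values of 4.12, 13.8 and 2.33 FPKM among the controls, in the order of their numbers. Those labelled knockout had 10.8, 8.50 and 7.68 FPKM. Its level therefore does not bear out the label (log2 difference 0.65 ± 0.43 SE, limma adjusted p = 0.503), and without control library 2 it was higher in the libraries labelled knockout (1.26, limma adjusted p = 0.0343, in a range of 0.0343 to 0.851 over all alternatives). All directions below follow the labels alone. All 10 chosen markers of haematopoietic stem cells, such as Procr, Slamf1, Mecom and Hlf, reached 1 FPKM in at least 1 library. Of the markers of other cells, 2 of 7 for B cells and 1 of 6 for T and NK cells reached 1 FPKM in a library. So did 2 of 6 for stroma and endothelium, 3 of 6 for monocytes and macrophages and 4 of 9 for neutrophils. Most erythroid markers (7 of 8) and all megakaryocyte markers (6 of 6) reached it too. Among these lists, Lyz2 ran from 325 to 383 FPKM, Pf4 from 159 to 354 FPKM and Prtn3 from 58.5 to 93.5 FPKM. Pax5 and Cd8a were read at 0.01 FPKM at most, Cd3g at 0.02 and Lepr at 0.04. In contrast, Cd79b of the B cell list ran from 23.2 to 29.6 FPKM, Nkg7 of the T and NK cell list from 49.5 to 98.9 FPKM, Emcn of the endothelium from 5.62 to 9.17 FPKM and the collagen gene Col1a2 from 0.92 to 1.96 FPKM.

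The promoter sequences of 3 synthesis genes are shown because Myc, whose protein binds the motif CACGTG and is a known activator of Odc1, differed between the groups, as described further on. RefSeq promoter windows (GRCm38.p6) were at hand for 8 of the 10 genes, without Srm and Azin1. The 250 bases before each start were searched on both strands for CACGTG and for GGGCGG, the motif of Sp1-type factors. Bases after the start, introns included, were not searched, so a window without a motif does not show that the gene lacks it. No window of these genes held both motifs. Capitals mark matches to CACGTG, and to GGGCGG or its complement CCGCCC. Bases inside the GENCODE gene are left out, which shortens the window of Odc1.
Odc1, chr12:17544623-17544793, plus strand: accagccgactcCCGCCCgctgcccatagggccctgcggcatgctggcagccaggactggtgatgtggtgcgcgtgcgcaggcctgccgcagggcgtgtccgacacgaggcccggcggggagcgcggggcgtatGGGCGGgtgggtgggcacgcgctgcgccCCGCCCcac
Amd1, chr10:40302189-40302438, minus strand: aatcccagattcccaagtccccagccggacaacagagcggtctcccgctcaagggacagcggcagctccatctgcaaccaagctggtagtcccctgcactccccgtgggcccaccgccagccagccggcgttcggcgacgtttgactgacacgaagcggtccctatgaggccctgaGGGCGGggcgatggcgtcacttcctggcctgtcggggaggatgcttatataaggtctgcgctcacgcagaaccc
Sms, chrX:157492288-157492537, minus strand: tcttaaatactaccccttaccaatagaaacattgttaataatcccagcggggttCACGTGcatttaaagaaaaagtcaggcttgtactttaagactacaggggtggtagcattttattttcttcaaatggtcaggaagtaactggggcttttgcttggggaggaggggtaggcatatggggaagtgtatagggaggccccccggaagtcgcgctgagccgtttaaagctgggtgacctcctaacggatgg
Among the 10 windows of the 8 genes, CACGTG lay only in this window of Sms, 196 bases before the start, and 6.02% of all 32851 windows of the same length held it. GGGCGG lay in 8 of the 10 windows of these genes, against 32.7% of all windows. The windows without it were that of Oaz1 and the Sms window printed above. The GC content was 80.0% in the full window of Odc1, 64.4% in that of Amd1 and 47.2% in the Sms window printed above. The other Sms window, which held GGGCGG and no CACGTG, had a GC content of 75.2%.

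The levels of the 10 genes spanned a wide range and kept a nearly fixed order. Oaz1 was the highest, with a mean of 242 FPKM over the 6 libraries, followed by Srm (145 FPKM), Odc1 (64.1 FPKM), Oaz2 (41.2 FPKM), Sat1 (37.8 FPKM) and Amd1 (25.6 FPKM). Azin1 (19.9 FPKM), Sms (10.2 FPKM), Smox (7.72 FPKM) and Paox (4.80 FPKM) were the lowest. The ranges of neighbours in this order did not touch, except between Oaz2 and Sat1 and between Sms and Smox. Oaz1 and Srm stood at the 98.7th and 97.6th percentiles of the 12555 genes tested, and Paox at the 33.9th. Of the 2 aminopropyltransferases, the spermidine synthase gene was therefore read at a far higher level per length than the spermine synthase gene.

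**Figure D1:**
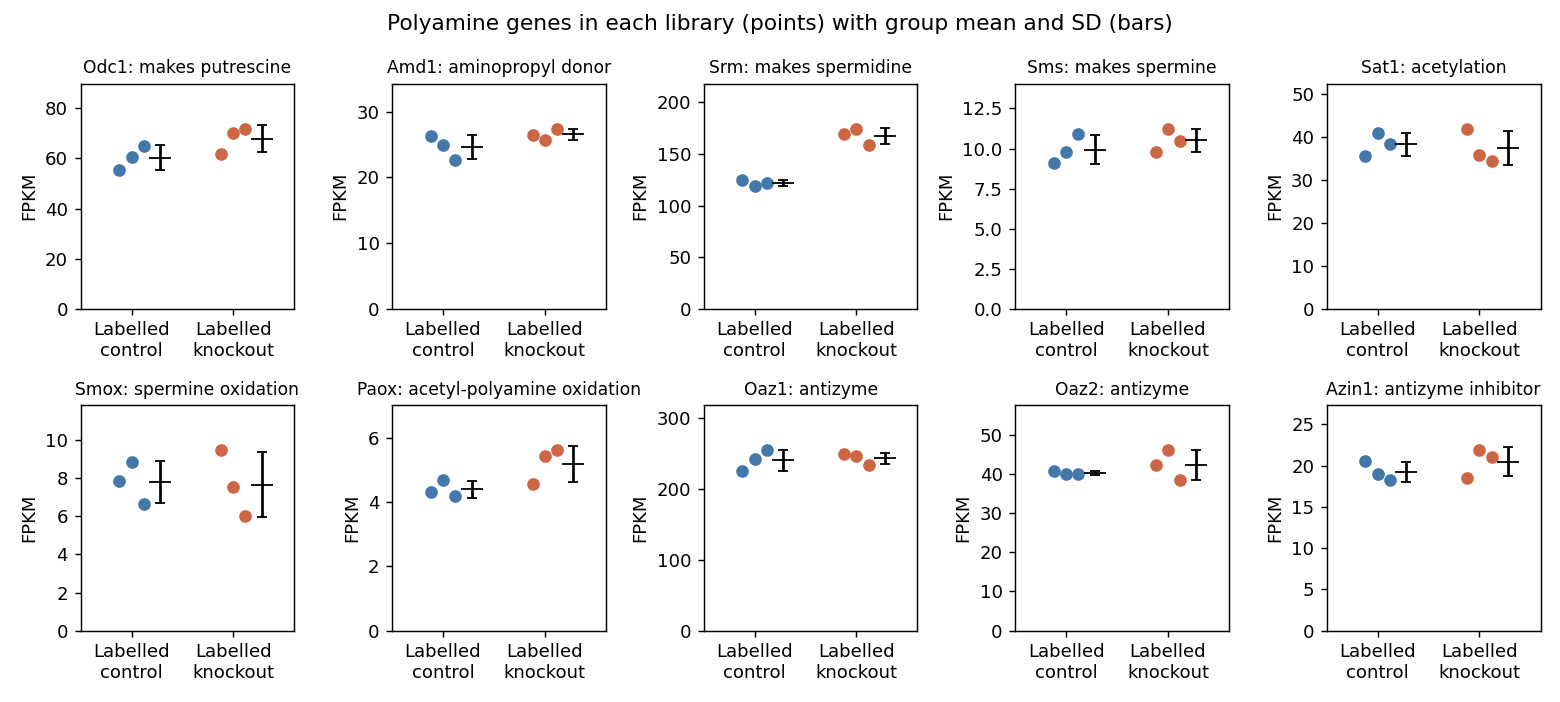
FPKM of each polyamine gene (vertical axes from 0, one scale per panel) in the 3 libraries labelled control (blue) and the 3 labelled knockout (orange), with the group mean and SD in black. Only the panel of Srm shows groups that do not overlap, 119 to 125 against 159 to 175 FPKM.

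Srm, the spermidine synthase gene, was the only one of the 10 called between the groups. Srm (ENSMUSG00000006442, chromosome 4, 148591503 to 148594993, GRCm38) stood at 125, 119 and 122 FPKM in control libraries 1 to 3. In the libraries labelled knockout 1 to 3 it stood at 169, 175 and 159 FPKM. All 3 libraries labelled knockout were above all 3 controls, and the gap between the groups was wider than the spread within either. The means were 122 ± 2.71 and 168 ± 7.95 FPKM (SD, n = 3 each), a ratio of 1.37. On the log2(FPKM + 1) scale the difference was 0.45 ± 0.07 SE, with a 95% interval of 0.30 to 0.60 (limma adjusted p = 0.0112 over all genes). Between 4412 and 8351 reads lay behind each value, and no other GENCODE gene had a stretch of at least 200 bases that was at least 95% identical to the longest Srm transcript. A different mix of cells and a different amount of Srm RNA per cell cannot be told apart in such bulk samples.

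Of the 10 genes, 1 was called, and it was higher, against 1.56% of all 12555 genes tested called in either direction and 0.566% called higher. The values of both groups were apart in 1 of the 10, again higher, against 22.8% of all genes in either direction and 12.6% higher. At an unadjusted p below 0.05 stood 1 of the 10 genes and 16.4% of all genes. The list was drawn up with this comparison known, and nothing is read from these shares. All 10 genes passed the filter on low values. Their median difference was 0.08 on the log2(FPKM + 1) scale, beside 0.01 over all genes tested, and 8 of 10 lay above 0. Srm ranked 272nd of 12555 by the size of its rise and 63rd by unadjusted p. The call of Srm was lost without control library 2 (adjusted p = 0.0604) and without the library labelled knockout 2 (adjusted p = 0.0733), with differences of 0.43 and 0.42. It was also lost with no filter on low values (0.103), without the intensity trend (0.0677) and with the replicate number as a block (adjusted p = 0.0713), where the difference was unaltered.

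The other 3 synthesis genes were not called. Odc1 (chromosome 12, 17544794 to 17551505), which encodes the rate-limiting decarboxylase, stood at 55.2, 60.4 and 65.1 FPKM in the controls, and in those labelled knockout at 61.8, 70.2 and 71.8 FPKM. The lowest of the latter lay inside the control range, so the groups overlapped. The difference was 0.17 ± 0.09 SE, with a 95% interval of -0.02 to 0.36. Amd1 (chromosome 10, 40287458 to 40302186), whose enzyme makes the aminopropyl donor, stood at 26.2, 24.9 and 22.7 FPKM and at 26.5, 25.7 and 27.4 FPKM. Its groups overlapped as well, with an interval of -0.07 to 0.28. Sms (chromosome X, 157443855 to 157492287) stood at 9.09, 9.80 and 10.9 FPKM and at 9.79, 11.2 and 10.5 FPKM, with an interval of -0.15 to 0.30. The upper limit for Sms was thus just below the lower limit for Srm, 0.30 on rounding, while those of Odc1 and Amd1 were 0.36 and 0.28. The difference between genes was not tested.

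Ratios taken within a library do not depend on how libraries are scaled to each other. The ratio of Srm to Sms FPKM was 13.7, 12.2 and 11.2 in the controls and 17.3, 15.5 and 15.1 in the libraries labelled knockout. That of Srm to Amd1 was 4.75, 4.79 and 5.39 against 6.38, 6.79 and 5.79. Both ratios were higher in every library labelled knockout than in any control. The ratio of Srm to Odc1 overlapped between the groups, at 2.26, 1.98 and 1.88 against 2.74, 2.49 and 2.21. These ratios share the Srm values described above and add no separate evidence.

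**Figure D2:**
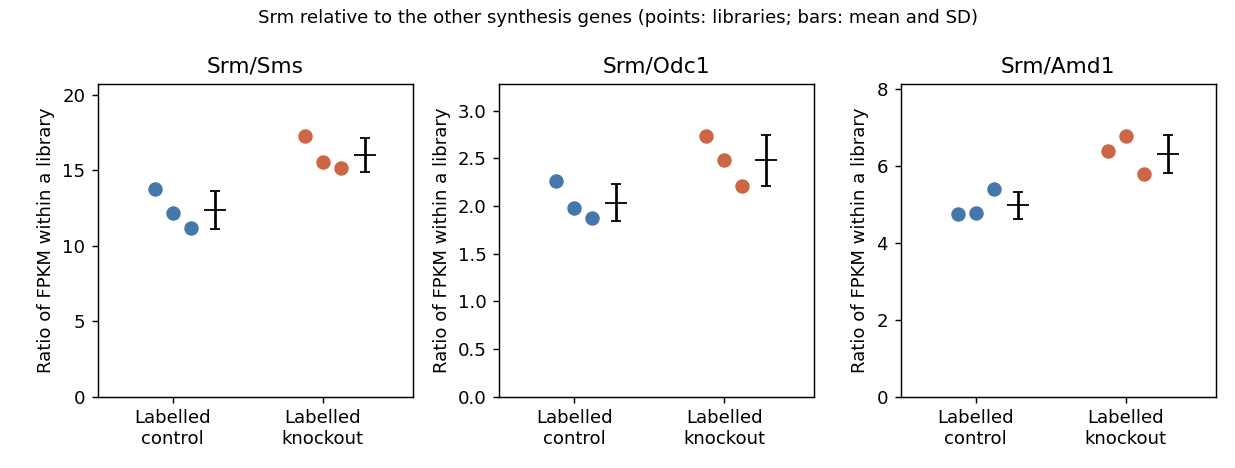
Ratio of Srm FPKM to that of Sms, Odc1 and Amd1 in each library (points; blue for labelled control, orange for labelled knockout), with mean and SD in black and axes from 0. Groups are apart for Srm/Sms (12.4 ± 1.28 against 16.0 ± 1.14) and Srm/Amd1, and touch for Srm/Odc1.

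The 3 genes of polyamine breakdown showed no call. Sat1 (chromosome X, 155213132 to 155216449), whose acetyltransferase marks spermidine and spermine for export or oxidation, stood at 35.6, 40.9 and 38.3 FPKM in the controls. Those labelled knockout had 41.9, 35.9 and 34.3 FPKM and held both the highest and the lowest value. Paox (chromosome 7, 140115799 to 140137224), which encodes the peroxisomal oxidase of acetylated polyamines, stood at 4.32, 4.70 and 4.18 FPKM and at 4.56, 5.43 and 5.61 FPKM. Its first library labelled knockout lay inside the control range (95% interval of the difference -0.07 to 0.46). Smox (chromosome 2, 131491496 to 131525922), which encodes spermine oxidase, stood at 7.86, 8.84 and 6.64 FPKM and at 9.46, 7.52 and 6.03 FPKM. Smox varied most among the 10 genes relative to its mean, with a coefficient of variation of 14.2% in the controls and 22.4% in the libraries labelled knockout. Smox lies 13.4 Mb from Thbs1 on the same chromosome. Differences of Sat1 and Smox were -0.04 and -0.03 on the log2(FPKM + 1) scale.

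The regulators of ornithine decarboxylase were not called either. Oaz1 (chromosome 10, 80826656 to 80829290), the main antizyme gene, stood at 225, 242 and 255 FPKM in the controls, and in those labelled knockout at 249.9, 246 and 235 FPKM, which all lay within the control range. Its interval, -0.14 to 0.18, was the narrowest of the not called genes. Oaz2 (chromosome 9, 65668001 to 65690300), a second antizyme gene, stood at 40.8, 39.9 and 39.9 FPKM and at 42.2, 46.0 and 38.4 FPKM. Azin1 (chromosome 15, 38487427 to 38519266), whose product resembles the decarboxylase and draws antizyme away from it, stood at 20.6, 19.0 and 18.2 FPKM and at 18.5, 21.9 and 21.1 FPKM. Both pairs of groups overlapped. The ratio of Odc1 to Oaz1 FPKM ran from 0.246 to 0.256 in the controls and from 0.247 to 0.306 in the libraries labelled knockout, so that it was more spread in the latter and overlapped. Over the 9 not called genes, limma adjusted p-values ran from 0.367 to 0.956 and 95% intervals reached from -0.38 to 0.46. A miss of the threshold does not show that these levels were equal.

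**Figure D3:**
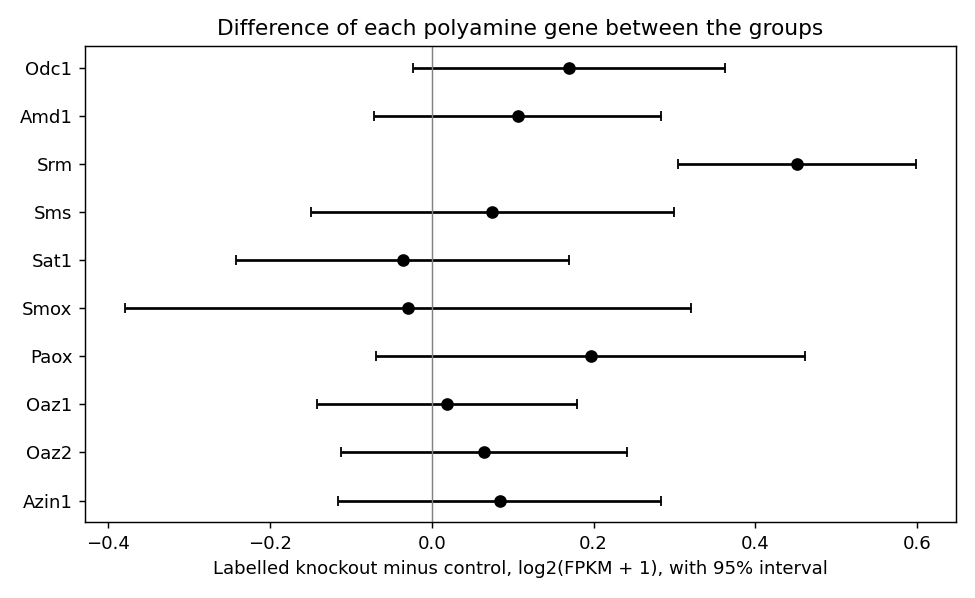
Difference between libraries labelled knockout and control for each polyamine gene on the log2(FPKM + 1) scale, with its 95% interval from the moderated standard error. Srm (0.45) has the only interval clear of 0 among the 10 genes.

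Scaling moved the whole set. With every library rescaled to a sum of 1000000 (TPM), the median log2 difference over all genes tested moved from 0.01 to 0.19. Srm then differed by 0.66, or 0.46 above that median, and Odc1 (0.37, limma adjusted p = 0.0225) and Oaz1 (0.22, adjusted p = 0.0269) were called as well. Relative to the median they differed by 0.18 and 0.03. Sat1 and Smox turned from below to above 0 under TPM, and lay 0.03 below the median of all genes there.

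Near-identical copies limit some of these values. Amd1 is 99.6% identical to the retrocopy Amd2 over 3202 aligned bases, and Amd2 was read at 0.87 to 1.16 FPKM. Oaz1-ps matched Oaz1 at 100% over 259 bases and was read at 15.3 to 20.4 FPKM, with no call. Odc1 had 7 matches of at least 200 bases at 95% identity or more, read at 2.80 FPKM or less. Not all are copies of the whole gene, as the protein-coding gene AW146154 matched over 500 bases and Rps7-ps2 over 359. Copies of Sms, Oaz2, Sat1 and Paox reached 1.19, 2.39, 0.26 and 0.38 FPKM, and Smox had no copy. No source used here says how reads were shared between copies. The kit does not mark strand, and 142 bases of Paox exon, or 2.89%, overlap Echs1 on the opposite strand. For Azin1, 358 bases of exon, or 5.72%, overlap an unnamed gene on the opposite strand (ENSMUSG00000115546), which was also its single match among copies.

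Myc, an activator of Odc1 transcription, stood at 273, 248 and 225 FPKM in the controls, and in those labelled knockout at 387, 423 and 400.1 FPKM (difference 0.70 ± 0.08 SE, limma adjusted p = 0.00446). With no filter on low values the Myc call was lost (limma adjusted p = 0.108), and over all alternatives its adjusted p ran from 0.00329 to 0.108. The ratio of means was 1.62 for Myc, beside 1.37 for Srm and 1.13 for Odc1. Whether Myc bears on either was not tested.

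Genes that supply, carry or use polyamines gave no call. Of 48 genes in 5 lists around the pathway, 30 were tested and 0 were called by limma, against 1.56% of all genes tested. An unadjusted p below 0.05 was found for 6 of the 30, against 16.4% of all genes, a share near the background. Values of both groups were apart for 3 genes that were higher and 2 that were lower, against 12.6% and 10.1% of all genes tested, and the median difference was 0.02. For polyamine transport, 6 of 10 genes were tested. Slc22a3, an organic cation transporter that also carries polyamines, stood at 43.2, 47.6 and 41.3 FPKM in the controls, and in those labelled knockout at 35.4, 30.1 and 33.7 FPKM. Its groups did not overlap, and the difference was -0.40 ± 0.09 SE (limma adjusted p = 0.0546). It was called with median-of-ratios scaling and with quantile normalization (limma adjusted p = 0.0445 and 0.0370, in a range of 0.0370 to 0.234 over all alternatives). Atp13a3, which encodes a polyamine transporter, and Slc18b1, a vesicular polyamine carrier, had overlapping groups, with means of 4.91 ± 0.525 and 3.91 ± 1.18 FPKM and of 5.28 ± 0.700 and 6.48 ± 0.832 FPKM.

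Precursor supply gave no call. Of 11 genes of ornithine and arginine supply 6 were tested, and the arginase genes Arg1 and Arg2 stayed below 1 FPKM in every library. Slc25a15, the mitochondrial ornithine carrier, stood at 10.7, 11.1 and 10.04 FPKM and at 12.4, 13.1 and 14.2 FPKM without overlap (limma adjusted p = 0.149). Ass1, argininosuccinate synthetase, stood at 13.8 ± 1.39 and 11.03 ± 1.34 FPKM and Oat, ornithine aminotransferase, at 71.3 ± 4.58 and 76.3 ± 4.10 FPKM (SD, n = 3 each), both with overlap. Of 15 genes of the methionine cycle and of the salvage of methylthioadenosine, the by-product of spermidine and spermine synthesis, 12 were tested. Mat2a, which encodes the enzyme that makes S-adenosylmethionine, stood at 174, 180.3 and 169 FPKM and at 191, 191 and 197 FPKM (adjusted p = 0.295 by limma). Adi1, a dioxygenase of the salvage route, stood at 102 ± 4.33 and 119 ± 8.46 FPKM (limma adjusted p = 0.182). The groups of both did not overlap, while those of Enoph1, another salvage enzyme gene, did, at 24.4 ± 1.72 and 26.7 ± 1.62 FPKM.

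In the hypusine pathway, 4 of 4 genes were tested and none was called. Eif5a, the translation factor gene, stood at 897, 916 and 1014 FPKM in the controls, and in those labelled knockout at 949.8, 974 and 896 FPKM, and was named after its values were seen. Dhps and Dohh, which encode the enzymes that attach and finish hypusine, stood at 10.2 ± 0.245 and 10.4 ± 0.136 FPKM and at 3.70 ± 0.135 and 3.79 ± 0.154 FPKM. Eif5a2 stood at 2.86 ± 0.307 and 2.27 ± 0.591 FPKM. Of 8 further enzymes and regulators 2 were tested. Azin2, a second antizyme inhibitor gene, stood at 3.28, 3.13 and 3.61 FPKM and at 2.71, 2.58 and 2.27 FPKM without overlap (limma adjusted p = 0.287), and Hdac10, a polyamine deacetylase gene, at 21.6 ± 1.43 and 24.2 ± 3.35 FPKM.

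**Figure D4:**
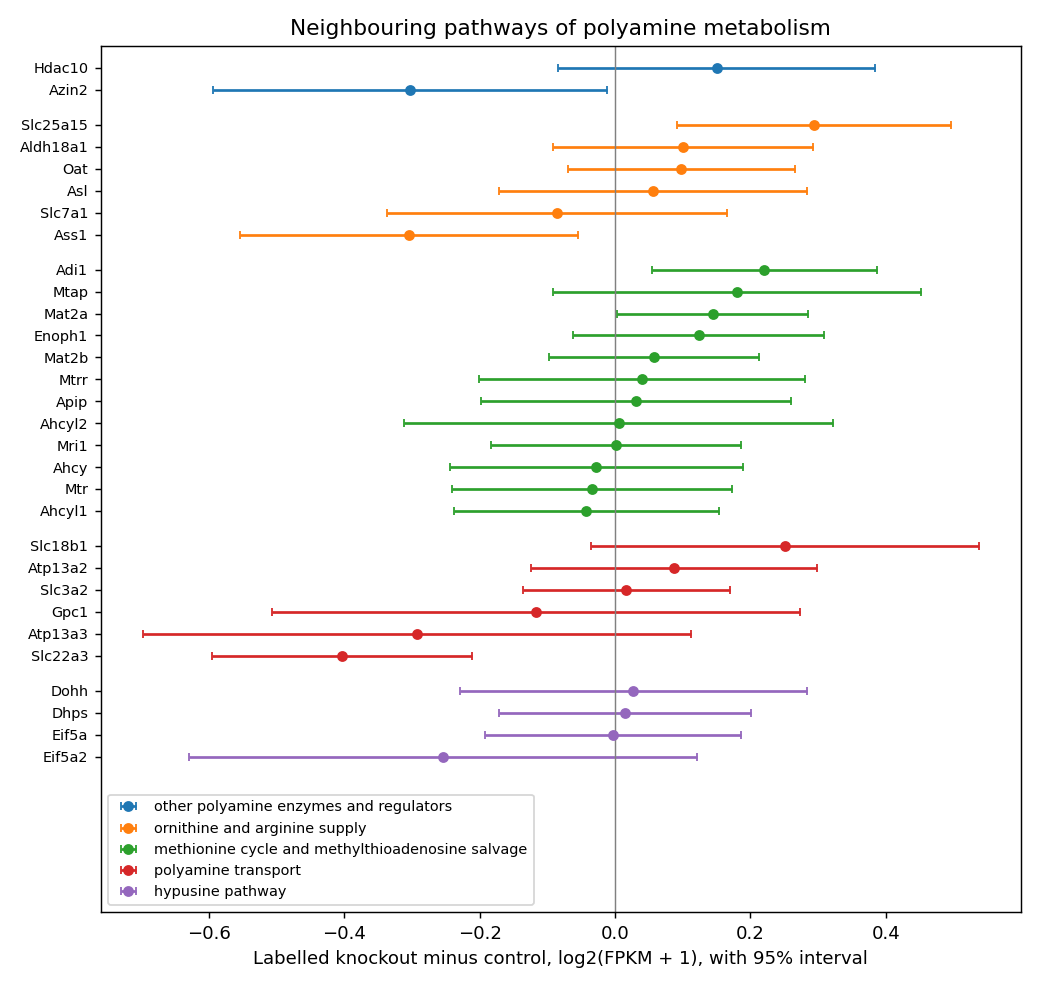
Difference between libraries labelled knockout and control on the log2(FPKM + 1) scale for the 30 tested genes of 5 neighbouring lists, with 95% intervals (colours mark the lists). Slc22a3 (-0.40) lies lowest and Slc25a15 (0.29) highest.

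Proliferation genes were examined because polyamine synthesis accompanies cell growth. Of 12 such genes, 1 was called lower, against 0.996% of all genes tested, and 11 were not called, with a median difference of 0.00132. The called gene, Pcna, the sliding clamp of DNA replication, fell from 120.2, 115 and 152 FPKM in the controls to 77.6, 88.2 and 87.8 FPKM (limma adjusted p = 0.0309). Pcna lies on chromosome 2 (132249162 to 132253314), as do Thbs1 and Smox, and whether its place bears on the call was not tested. The processed pseudogene Pcna-ps2, 99.2% identical to Pcna over 781 bases, rose from 3.41 ± 0.590 to 45.6 ± 1.99 FPKM. Their sum was 133 ± 20.3 and 130.2 ± 6.51 FPKM. The exon lengths are 2400 bases for Pcna and 781 for Pcna-ps2, so this sum of per-length values does not add up reads. Between 5423 and 8302 reads lay behind the values of Pcna, and between 55 and 1097 behind those of Pcna-ps2. Whether reads moved between them was not tested. The Pcna call was lost without control library 1 and on leaving out any 1 of the libraries labelled knockout (limma adjusted p from 0.0522 to 0.0863). It was also lost with no filter on low values and without the intensity trend (limma adjusted p = 0.220 and 0.0981). Tyms, Birc5 and Ccna2 had overlapping groups.

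Marker lists of other marrow cells were read beside Srm. The sums of 4 lists were lower in every library labelled knockout than in any control, and each of these gaps rested on a single gene. The summed FPKM of 6 megakaryocyte genes ran from 380.3 to 481 in the controls and from 261 to 368 in those labelled knockout. Without Pf4, a platelet chemokine gene (315 ± 42.3 and 189 ± 48.4 FPKM, not called), the sums overlapped, at 110 to 128 and 101 to 123. The summed FPKM of 8 erythroid genes ran from 44.9 to 50.5 and from 36.1 to 40.4. Without the globin gene Hbb-bt, which was called lower (14.8 ± 4.50 and 4.06 ± 0.462 FPKM), they overlapped, at 30.5 to 37.0 and 32.6 to 36.0. Klf1 and Epor of the same list had higher means in the libraries labelled knockout (10.3 and 12.9 FPKM, and 12.7 and 13.2 FPKM) and were not called. The sum of 7 B cell genes ran from 29.3 to 31.1 and from 24.2 to 27.8, and without Cd79b (not called) from 1.5 to 2.03 and from 0.99 to 2.53. The sum of 6 T and NK cell genes ran from 72.2 to 99.0 and from 49.7 to 61.4, and without Nkg7, which was called lower, from 0.06 to 0.35 and from 0.16 to 0.42. Sums of the neutrophil (9 genes), monocyte (6 genes), stromal (6 genes) and stem cell (10 genes) lists overlapped. Without Lyz2, however, the monocyte sums were apart, at 13.7 to 16.0 in the controls and 8.11 to 11.3 in those labelled knockout. In that list Cd68 stood at 11.7 ± 1.66 and 7.40 ± 1.49 FPKM without overlap and was not called. The part of these cells in the Srm difference was not tested.

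The genes whose pattern over the 6 libraries was most like that of Srm were Daglb, Lpar5 and Ilf2 (Pearson's r of 0.998, 0.995 and 0.994 on the log2(FPKM + 1) scale). Those most like Odc1 were Ctns, Ndufaf4 and Pgrmc1 (0.996, 0.988 and 0.981). With 6 points that share 2 groups, r exceeded 0.95 for 146 genes with Srm and for 20 with Odc1, and these likenesses are a description.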

How the data were processed

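The deposited table holds FPKM made by the authors, with 2 decimals, for 52183 genes in 6 libraries. Per the labels' protocols, libraries were made with the SMART-Seq v4 kit from 2 ng of RNA. STAR, edgeR, FastQC 0.11.5 and the builds GRCm38 and mm10 appear in the submitters' processing notes. No source used here gives their roles, the annotation or how reads were counted. All identifiers matched GENCODE M21 (GRCm38), the source of positions and exon lengths. Between 99.4% and 99.8% of short-gene values were whole within 0.1 read at the depths given. Summed over all genes, the reads so inferred came to 1.07 times the inferred depth in each library, for a reason not tested. Read numbers are therefore approximate, and they cover counting error only.

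The 12555 genes that reached 1 FPKM in 3 or more libraries entered limma 3.58.1 (R 4.3.3) as log2(FPKM + 1) (intensity trend, two-sided, Benjamini-Hochberg over all genes, threshold 0.05). This scale understates changes of low genes. A simulation over 12555 genes gave 60 of them a 1.5-fold shift, and 73.3% of these were recovered. Larger shifts were set as well, 2-fold for 73 genes (89.0% recovered) and 4-fold for 67 (100%). The 190 calls, 14 of them false, were counted over the whole simulation and not for the smallest shift alone. How far these shares hold for the real libraries was not tested. Copies were found with BLAST 2.17.0. Alternatives were another pseudocount, no filter, TPM, median-of-ratios scaling, quantile normalization, no trend, a replicate block and leaving out each library.

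Members and lists were chosen with earlier results of these data known. Named genes are all members, called list genes and up to 3 others per list by unadjusted p, Thbs1, Myc, and the 3 genes most like Odc1 and Srm. Other genes named were chosen after their values were seen.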

Additional observations from a re-analysis of the deposited data

How the results depend on the processing

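As reported, 71 genes were called higher and 125 lower, with 1 of the 10 polyamine genes (Srm) and 1 gene of the pathway and proliferation lists (Pcna). With no filter, 8 genes were called higher and 16 lower, with 0 polyamine genes and 0 genes of the lists. Without the intensity trend the counts were 24 and 65, with 0 and 0, and with the replicate block 27 and 54, with 0 polyamine genes. In these 3 fits Srm differed by 0.45 without a call. Under TPM, 2016 genes were higher (94.0% of calls, in place of 36.2%), with 3 polyamine genes, 10 list genes and a median over the 10 genes of 0.28. List calls were 2 with median-of-ratios scaling and 2 with quantile normalization. Leaving out 1 library gave 16 to 38 higher and 43 to 77 lower genes, 0 to 1 polyamine genes, 0 to 1 list genes, a median of 0.034 to 0.11 and Srm differences of 0.42 to 0.49, always above 0. Over 13 alternatives the adjusted p of Srm ran from 0.00163 to 0.103, with the call kept in 8.

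Genes near 0 changed sign: under TPM Sat1 (0.17), Smox (0.16) and Eif5a (0.20), with median-of-ratios scaling Oaz1 (-0.0020) and Dhps (-0.0047), and with quantile normalization Dhps (-0.0055) and Eif5a (0.094). With a library left out, Oaz1 ran from -0.029 to 0.061, Sat1 from -0.12 to 0.021, Smox from -0.17 to 0.11, Eif5a from -0.037 to 0.052 and Dhps from -0.0017 to 0.030. Rescaling to TPM raises every value of the libraries labelled knockout relative to the controls, as their FPKM sums were lower. Why these sums differed was not tested, nor was the cause of the other sign changes.

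Equal numbers gave no sign of pairing, as deviations of same-numbered libraries correlated at -0.11, 0.04 and -0.08. Control 1 correlated best with the library labelled knockout 3 (0.19). The deviations are taken from group means and constrain each other, so this check cannot show that pairing is absent. The values of the 10 genes rest on 466 reads or more, and how far counting error adds to their spread was not tested.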
